A study of Mus musculus with 4 samples.

Results

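The Snf2 family of ATPases outside the BAF complex was described in mouse embryonic stem cells that carried a G784E change in Smarca4, the ATPase of BAF (mammalian SWI/SNF). The members were chosen by name: 30 genes of the ISWI, CHD, INO80/SRCAP/EP400 and distant classes, out of 24428 genes in the count tables, and all 30 were found there. Cells of strain 129SvEv in 2 groups were compared, each with 2 RNA-seq libraries of poly(dT)-captured RNA. Cells of the G784E group, labelled heterozygous, expressed Smarca4 with the G784E change fused to the V5 epitope tag, and cells of the WT group expressed wild-type Smarca4-V5 in its place. All cells of both groups also expressed wild-type Smarca4 fused to GFP. The untreated cultures were kept in medium with fetal bovine serum and LIF, and the study's title calls the change dominant-negative. The labels do not say how many clones each group came from, nor whether replicates were separate cultures. The p-values therefore rest only on how far the libraries of a group differ, which may be technical, and on a spread that the fits share across genes.

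Snf2-family proteins share an ATP-driven motor that pulls on DNA and can slide, space, evict or exchange nucleosomes, and the classes differ in the domains and partner subunits around that motor. Embryonic stem cells are known for open chromatin and for relying on remodellers besides BAF, among them the NuRD, CHD1, INO80 and TIP60-EP400 enzymes. The comparison of G784E with WT asked whether genes of the other remodellers were expressed at higher levels where a mutant BAF ATPase was present.

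Gene counts per library were 6226145 and 8895433 in G784E and 7027108 and 10083442 in WT, so that 1 count stood for 0.102 to 0.164 CPM. CPM here are counts scaled to library size by the TMM method, log2 fold changes are G784E over WT with their standard error (SE), and intervals are 95% intervals of the log2 fold change from the same edgeR fit, with 2 libraries per group. Reads in olfactory receptor genes, a background that stem cells are not known to express, came to 685 and 282 CPM before scaling in G784E replicates 1 and 2 and to 684 and 193 CPM in WT replicates 1 and 2. The labels give the molecule as genomic DNA although the protocol describes RNA. All 8 listed stem cell markers were present in all 4 libraries, and 0 were called in edgeR, DESeq2 or limma-voom, with 1 at an unadjusted p under 0.05 in edgeR. All 8 had log2 fold changes above 0, against 49.9% of all tested genes, with a median of 0.21. For 5 of the 8, or 62.5%, the groups did not overlap and G784E was higher, against 19.4% of all tested genes.

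None of the 30 ATPase genes passed the test between G784E and WT when group was the 1 term of the fit. In edgeR's quasi-likelihood test with Benjamini-Hochberg adjustment over all 15763 tested genes, 0 of 30 were called, against 2.56% of all tested genes, a share that would give 0.769 genes among 30. By direction, 0.672% of all tested genes rose in G784E and 1.89% fell. DESeq2 and limma-voom also called 0 of 30, against 2.33% and 3.49% of all tested genes. DESeq2 gave no adjusted p to 4279 of the tested genes, which count as not called in its share, and 0 of these were members. The smallest adjusted p was that of Chd3 (edgeR, adjusted p = 0.123). At an unadjusted p under 0.05, edgeR gave 3 of 30 members, 10% of them, against 11.6% of all tested genes. These were Chd3 and Srcap, with more reads in G784E (5.14% of all tested genes), and Rad54b, with fewer (6.48%). A fit that also took the replicate number as a block called 6 of 30 members higher in G784E, against 3.46% of all tested genes, and 0 lower, against 4.17%. The 6 were Srcap, Chd3, Ino80, Chd4, Ep400 and Chd7, and the labels do not say that the numbers pair libraries. The block leaves fewer residual degrees of freedom than the 2 of the fit on group alone. Its p-values therefore rest more on the spread shared across genes.

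Markers of another cell type differed between the groups beside these values. All 10 listed markers of primitive and visceral endoderm fell in G784E (edgeR), and their summed CPM was 308 and 321 in G784E and 3405 and 3741 in WT. None of the 10 was at 0 in any library, and the defining factor Gata6 had 2.29 and 2.59 CPM in G784E and 33.1 and 32.4 CPM in WT. Of 8 feeder fibroblast markers 6 were tested and 0 were called in edgeR, DESeq2 or limma-voom, with 0 at an unadjusted p under 0.05 in edgeR and summed CPM of 136 and 115 in G784E and 122 and 99.0 in WT. In bulk RNA, fewer cells of a type and less RNA per cell cannot be told apart, and the part of endoderm cells in the levels of the 30 ATPases was not tested.

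The intervals show how large a change these libraries allow. Of the 30 members, 29 had an interval that lay within 2-fold in either direction, against 44.2% of all tested genes. For 13 members the interval lay within 1.5-fold, against 2062 of all 15763 tested genes. The 1 interval that reached 2-fold was that of Chd3, whose upper end was 2.21-fold. For 16 members the upper end lay below 1.5-fold, against 5737 of all 15763 tested genes. These comparisons with all tested genes are not matched for level. In each group 28 of 30 members stood above the median level per exon length. The median SE was 0.21 over the members and 0.34 over all tested genes. Log2 fold changes ran from -0.49 (Rad54b) to 0.69 (Chd3), with SEs of 0.20 to 0.43. Their median was 0.14, beside a median of -0.0016 over all tested genes, and 24 of the 30 were above 0, against 49.9% of all tested genes. That number was 21 without the low-count filter and also without Rn45s, the ribosomal RNA precursor. It was 16 without WT replicate 1, 17 without G784E replicate 2, 24 without G784E replicate 1 and 27 without WT replicate 2. Without the filter the member median was 0.095, beside -0.061 over all genes tested there. Without Rn45s these medians were 0.10 and -0.037. The member median was 0.011 without WT replicate 1, below the 0.047 of all tested genes there, and 0.066 without G784E replicate 2, beside 0.033 over all tested genes. It was 0.23 without G784E replicate 1 and 0.27 without WT replicate 2, beside -0.025 and -0.011 over all tested genes in that order.

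**Figure D1:**
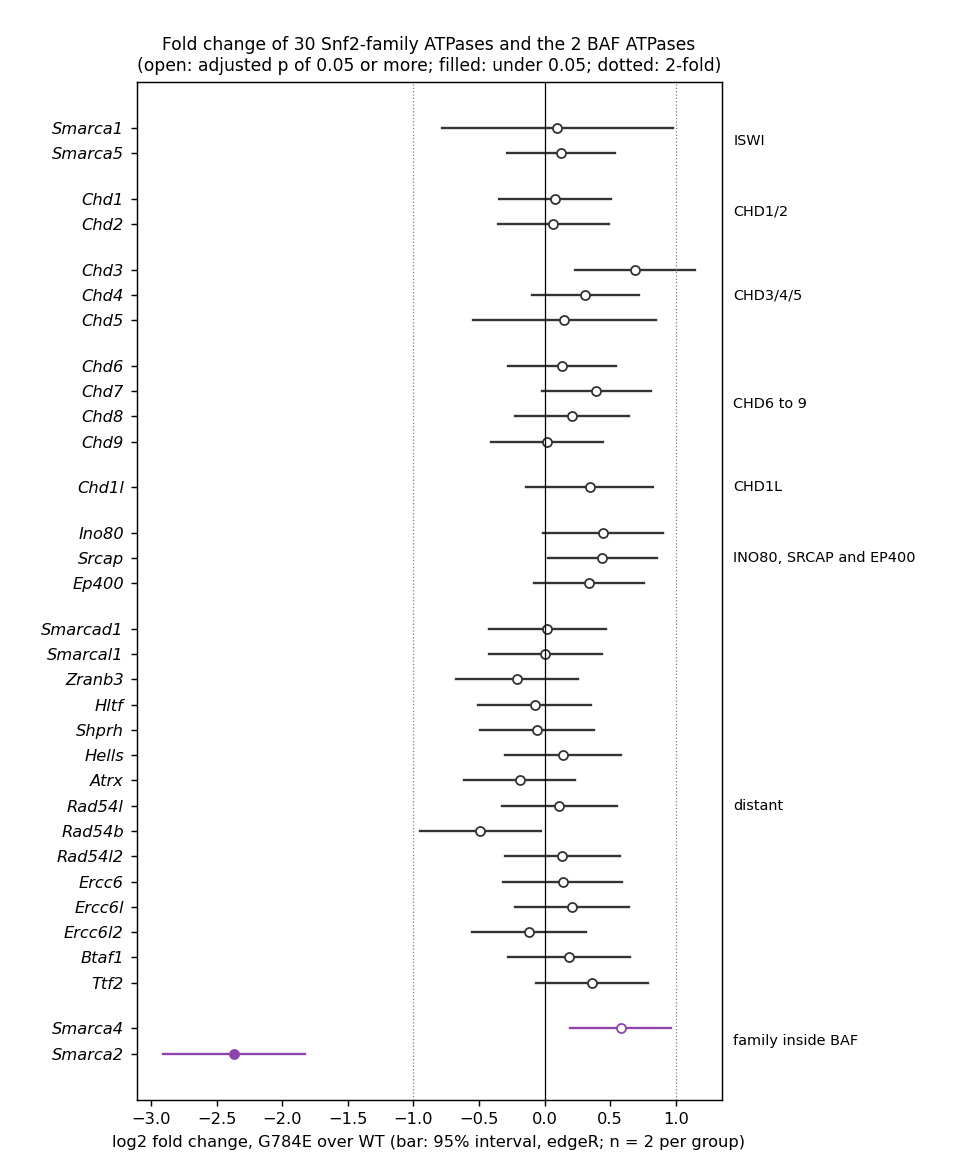
Log2 fold change (G784E over WT) of the 30 Snf2-family ATPases outside BAF, by class, and below them the 2 ATPases of BAF, as points with 95% intervals from edgeR (n = 2 libraries per group). All 30 members are open points, which did not pass the test, and Smarca2, at -2.37, is the 1 filled point.

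Levels per exon length differed between members far more than between the groups. Chd4, the main ATPase of the NuRD complex, stood highest, at 135 and 143 CPM per kb of exon in G784E and at 101 and 124 CPM per kb in WT. In G784E it was followed by Chd1 (mean of 71.2 CPM per kb), Atrx (68.3), Hells (54.9) and Srcap (52.4). In WT Atrx (77.9) stood before Chd1 (67.4), Hells (49.9) and Srcap (38.6). Chd1 and Atrx overlapped in their library values in both groups, as did Hells and Srcap, and Hells overlapped Atrx in G784E. Within single libraries, Chd1 stood above Atrx in both G784E libraries and below it in both WT libraries. In G784E replicate 1 the 2 genes were close (63.0 against 62.0), and neither was called between the groups. Atrx stood above Hells in both G784E libraries. Hells stood above Srcap in both WT libraries, but in G784E it was below in replicate 1 (47.1 against 53.2) and above in replicate 2 (62.7 against 51.7). At the other end stood Chd5 (means of 1.29 CPM per kb in G784E and 1.16 in WT) and Smarca1 (1.20 in G784E and 1.12 in WT), whose libraries also overlapped. These 2 genes were the only members below the median of tested genes per exon length, in both groups. Exon lengths came from an annotation of another mouse build, matched by symbol for 30 of 30 members and 97% of tested genes. Each is the merged length of all exons annotated to a gene, which can exceed that of 1 transcript. The order between genes depends on this choice. The merged length was 8.019 kb for Chd4, 8.721 kb for Chd1 and 21.757 kb for Atrx. Without division by length, Atrx had more CPM than Chd4 and Chd1 in every library.

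**Figure D2:**
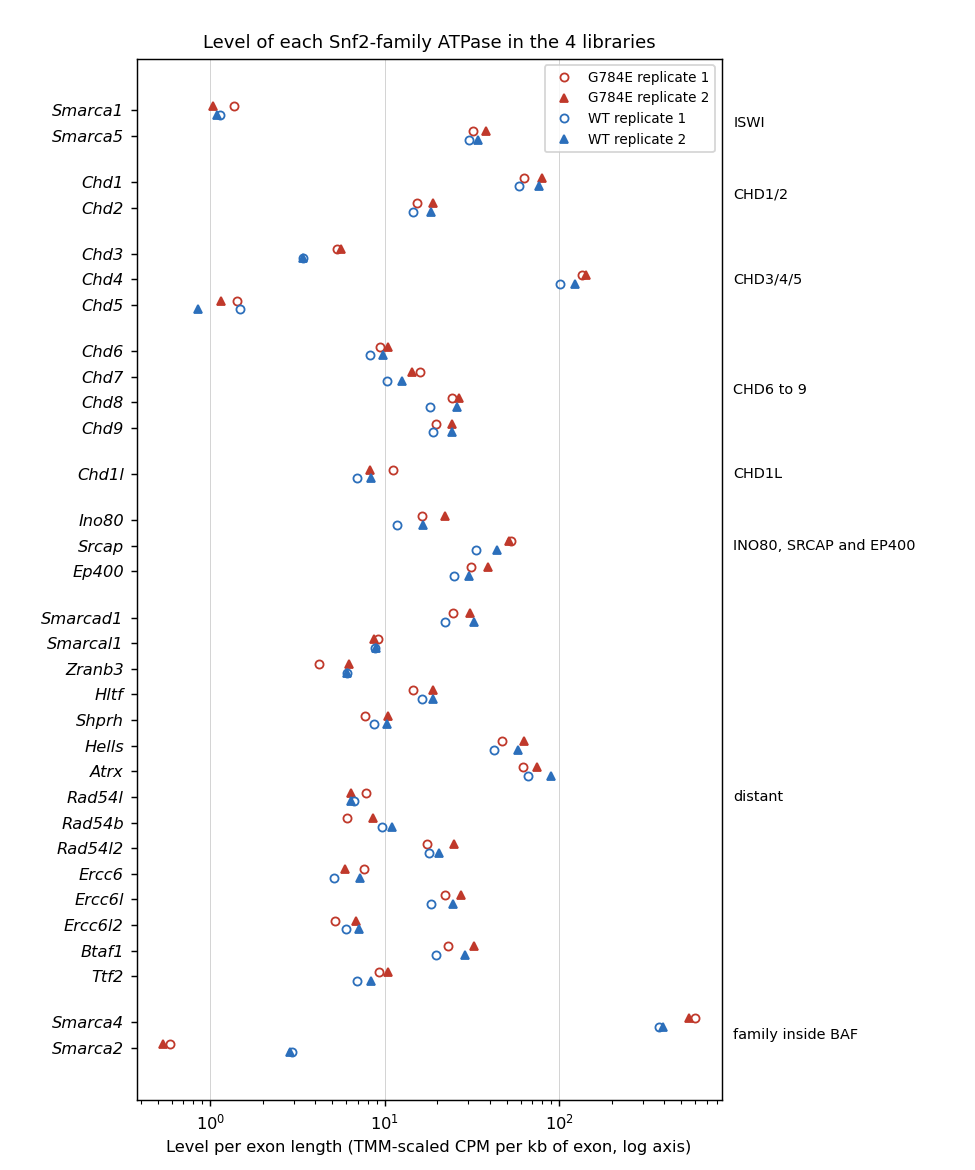
Level per exon length (TMM-scaled CPM per kb of exon, log axis) of each Snf2-family ATPase in the G784E libraries and the WT libraries, by class. The members span from about 1 CPM per kb (Smarca1, Chd5) to the level of Chd4, and Smarca4 lies above all of them.

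The BAF ATPases themselves give the scale for these levels. Smarca4 had 597 and 553 CPM per kb in G784E and 374 and 394 in WT, above every member in every library. Set beside the summed level of the 30 members, Smarca4 made up 46.0% and 40.3% of the total in G784E and 38.3% and 33.9% in WT. This share depends on the merged exon lengths, which were 6.475 kb for Smarca4 and up to 23.148 kb (Chd9) among the members. Its counts cannot tell the mutant from the wild-type alleles, and its difference did not pass the test in edgeR (log2 fold change 0.58, SE 0.19; adjusted p = 0.119), while it did in DESeq2 (adjusted p = 0.00808) and limma-voom (adjusted p = 0.0300). Smarca2, the alternative ATPase of BAF, had 8.34 and 7.66 CPM in G784E and 41.7 and 40.7 CPM in WT. Smarca2 fell (log2 fold change -2.37, SE 0.26; edgeR, adjusted p = 3.1e-06), and its interval, from -2.91 to -1.83, did not reach that of any of the 30 members. The lowest end among the members was -0.95, that of Rad54b.

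The ISWI ATPases space nucleosomes into regular arrays. Smarca5 (SNF2H), which drives most ISWI complexes in dividing cells, had 249 and 297 CPM in G784E and 236 and 265 CPM in WT. The groups overlapped, and the log2 fold change was 0.13 with an interval from -0.29 to 0.54. Smarca1 (SNF2L), its X-linked paralogue, known for a role in neurons, had 51 and 54 counts in G784E and 53 and 66 counts in WT. Its interval, from -0.78 to 0.98, was the widest of the family. Smarca5 made up 95.9% and 97.35% of the pair's summed level per exon length in G784E and 96.4% and 96.9% in WT, so that the groups overlapped in paralogue use. Of the 50-base words in Smarca5 transcripts, 28.2% also occur in another gene, mostly Smarca5-ps, so that its count is uncertain where reads were split or dropped.

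Chd1 and Chd2 bind nucleosomes at active genes, and Chd1 is known for keeping stem cell chromatin open. Chd1 had 549 and 692 CPM in G784E and 511 and 664 CPM in WT. Its libraries formed a low and a high pair by replicate number, not by group, with a log2 fold change of 0.08 and an interval from -0.35 to 0.51. Chd2 had a log2 fold change of 0.07 (interval from -0.36 to 0.49), and 19.3% of its exon bases overlap other genes. Chd1 made up 80.4% and 80.7% of the pair's level per exon length in G784E and 80.2% and 80.6% in WT.

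Chd3, Chd4 and Chd5 are the alternative ATPases of NuRD, which couples remodelling to histone deacetylation. Chd3 was the member nearest to the threshold, with 45.0 and 47.6 CPM in G784E and 28.7 and 28.8 CPM in WT. The groups did not overlap, and the difference between them was larger than that between replicates. Its log2 fold change was 0.69 (SE 0.22, interval from 0.23 to 1.15), 1.61-fold, and it did not pass the test (edgeR, adjusted p = 0.123). Chd4 had 1086 and 1145 CPM in G784E and 806 and 991 CPM in WT, also without overlap, with a log2 fold change of 0.31 (SE 0.20; edgeR, adjusted p = 0.64). Chd5, known from neurons and testis, had 13.6 and 11.1 CPM in G784E and 14.1 and 8.12 CPM in WT, which overlapped. Per exon length Chd3 supplied 3.75% and 3.77% of the level of the 3 genes in G784E and 3.22% and 2.67% in WT, and Chd4 supplied 95.25% to 96.67% in every library. The summed CPM of the 3 genes was 1144 and 1203 in G784E and 849 and 1028 in WT.

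Chd6, Chd7, Chd8 and Chd9 form the remaining CHD class of large proteins. Chd8, a repressor of beta-catenin targets and, within the spread of Chd9, the highest of the class per exon length, had 399 and 438 CPM in G784E and 298 and 426 CPM in WT, which overlapped (log2 fold change 0.21, interval from -0.22 to 0.64). Chd7, the gene of CHARGE syndrome and a factor at enhancers, had 219 and 196 CPM in G784E and 143 and 172 CPM in WT. The Chd7 groups did not overlap, and its log2 fold change was 0.40 (SE 0.20; edgeR, adjusted p = 0.472). The log2 ratio of Chd7 was 0.62 in the replicate 1 libraries and 0.19 in the replicate 2 libraries. Chd6 and Chd9 had log2 fold changes of 0.13 and 0.02 with overlapping groups. Chd1l (ALC1), a remodeller that poly(ADP-ribose) activates at DNA breaks, had 48.3 and 35.5 CPM in G784E and 29.7 and 35.9 CPM in WT. Its log2 ratio was 0.70 between the replicate 1 libraries and -0.02 between the replicate 2 libraries, so that the 2 pairs disagreed.

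Ino80, Srcap and Ep400 encode the split-ATPase remodellers that slide nucleosomes or handle the histone variant H2A.Z. Srcap had 839 and 817 CPM in G784E and 526 and 693 CPM in WT, without overlap (log2 fold change 0.44, SE 0.20, interval from 0.02 to 0.86; edgeR, adjusted p = 0.385). Ep400, the ATPase of the TIP60 complex, had 432 and 542 CPM in G784E and 349.7 and 422 CPM in WT, also without overlap (log2 fold change 0.34, SE 0.20). Ino80 had 111 and 151 CPM in G784E and 80.2 and 113 CPM in WT, which overlapped (log2 fold change 0.44, SE 0.22). None of the 3 passed the test on group alone, and all 3 are among the genes called with the replicate number as a block. Each stood above 0 within the libraries of both numbers: 0.67 and 0.24 for Srcap, 0.31 and 0.36 for Ep400, and 0.47 and 0.43 for Ino80 (replicate 1, then replicate 2). With each library left out in turn, the log2 fold change ran from 0.22 (without WT replicate 1) to 0.71 (without WT replicate 2) for Ino80 and from 0.26 to 0.65, without the same libraries, for Srcap. For Ep400 it ran from 0.19 (without G784E replicate 2) to 0.51 (without G784E replicate 1). Their summed CPM was 1382 and 1510 in G784E and 956 and 1228 in WT. A later annotation places another protein-coding gene model, Gm42715, over most of Srcap: 65% of Srcap exon bases overlap other genes there. Gm42715 was not found among the genes of the count tables, while the antisense gene 1700008J07Rik, which also overlaps Srcap, was.

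The 250 bases before the starts of these 3 genes are shown beside those of Smarca2, the BAF ATPase gene that fell, from RefSeq on build GRCm38.p6, which is not the build of the counts. Each reads 5′ to 3′ on the gene's strand, with CG dinucleotides in capitals. The windows are chr2:119477688-119477937 (minus strand) for Ino80, chr7:127511733-127511982 (plus strand) for Srcap, chr5:110770718-110770967 (minus strand) for Ep400 and chr19:26604910-26605159 (plus strand) for Smarca2.
Ino80: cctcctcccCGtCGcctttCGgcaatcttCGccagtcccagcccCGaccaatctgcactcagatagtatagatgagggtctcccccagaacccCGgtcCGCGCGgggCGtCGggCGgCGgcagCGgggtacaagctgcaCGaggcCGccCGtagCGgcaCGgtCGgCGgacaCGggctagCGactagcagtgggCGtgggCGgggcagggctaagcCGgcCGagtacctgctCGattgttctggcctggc
Srcap: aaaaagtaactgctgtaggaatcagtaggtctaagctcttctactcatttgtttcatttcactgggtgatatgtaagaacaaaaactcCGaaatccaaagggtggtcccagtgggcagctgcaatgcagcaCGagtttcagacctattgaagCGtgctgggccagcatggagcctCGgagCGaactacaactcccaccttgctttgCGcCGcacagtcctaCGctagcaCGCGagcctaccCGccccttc
Ep400: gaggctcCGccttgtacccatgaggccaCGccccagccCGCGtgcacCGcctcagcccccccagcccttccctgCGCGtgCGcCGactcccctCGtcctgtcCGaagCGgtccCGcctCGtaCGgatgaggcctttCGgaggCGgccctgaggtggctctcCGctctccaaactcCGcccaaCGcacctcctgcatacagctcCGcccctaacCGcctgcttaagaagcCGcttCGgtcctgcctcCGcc
Smarca2: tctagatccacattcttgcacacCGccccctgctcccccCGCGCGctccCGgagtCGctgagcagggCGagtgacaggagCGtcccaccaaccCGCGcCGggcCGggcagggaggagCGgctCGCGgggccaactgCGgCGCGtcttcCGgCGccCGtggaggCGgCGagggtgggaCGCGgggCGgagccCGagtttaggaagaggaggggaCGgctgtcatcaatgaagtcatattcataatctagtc
They hold 28 (Ino80), 11 (Srcap), 25 (Ep400) and 28 (Smarca2) CG dinucleotides, so that Smarca2, which fell, and Ino80, which did not pass the test, held the same number.

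Over the family, 23 of the 30 members had a promoter in that table, the exceptions being Chd1, Chd2, Chd3, Chd7, Rad54b, Rad54l2 and Ercc6l. The 250-base windows of these 23 held a median of 17 CG dinucleotides (6 to 29), beside 14 over the 11916 tested genes with a promoter. The letters TATAAA, searched on both strands, were in 0 of 23 windows, against 7.18% of all. The GC box letters GGGCGG, on both strands, were in 18 of 23, or 78.3%, against 55.2% of all, and CCAAT, on both strands, in 10 of 23, or 43.5%, against 35.9%. These are descriptions of letters in a window, without a test.

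The distant classes hold 15 members with varied tasks, and their log2 fold changes had a median of 0.02, with 9 above and 6 below 0. Rad54b, a recombination motor and paralogue of Rad54l, had 35.0 and 49.7 CPM in G784E and 55.7 and 63.8 CPM in WT, without overlap. Its log2 fold change was -0.49 (SE 0.22, interval from -0.95 to -0.03; edgeR, adjusted p = 0.378), with -0.67 between the replicate 1 libraries and -0.36 between the replicate 2 libraries. Without G784E replicate 2 it passed the test (log2 fold change -0.75; edgeR, adjusted p = 0.0422), in a fit where the lone G784E library is assumed to vary like the WT libraries; that fit called 3.37% of all tested genes lower and 1.95% higher. Over the other alternatives and this one the adjusted p of Rad54b ran from 0.0422 to 0.898. Of the exon bases of Rad54b, 35.9% overlap other genes, mostly Fsbp on the same strand, which had 5 to 19 counts per library. Rad54l, a motor of homologous recombination, had a log2 fold change of 0.11 and overlapping groups, and 15.4% of its exon bases overlap Lrrc41 on the opposite strand.

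Among members that act in heterochromatin, Atrx, the X-linked gene of a remodeller that works with DAXX, had 1349.9 and 1620.1 CPM in G784E and 1431 and 1959 CPM in WT, which overlapped (log2 fold change -0.19, interval from -0.61 to 0.23). Hells (LSH), needed for DNA methylation of repeats, had 339 and 452 CPM in G784E and 303 and 416 CPM in WT, which overlapped (log2 fold change 0.14, interval from -0.30 to 0.58). Smarcad1, which restores silent chromatin after replication, had a log2 fold change of 0.02. The ATPases that handle stalled replication forks also had overlapping groups. Their log2 fold changes were 0.0048 for Smarcal1, -0.21 for Zranb3, -0.07 for Hltf and -0.06 for Shprh, which with Hltf modifies the clamp protein PCNA. Smarcal1 had the closest means of the family, 50.8 ± 1.73 CPM in G784E and 50.6 ± 0.0618 CPM in WT (SD, n = 2 each).

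The remaining distant members act in transcription, repair or mitosis. Ttf2, which releases RNA polymerase from DNA in mitosis, had 71.0 and 80.0 CPM in G784E and 53.3 and 64.2 CPM in WT, without overlap (log2 fold change 0.36, SE 0.21; edgeR, adjusted p = 0.567). Btaf1, which removes the TATA-binding protein from DNA, had a log2 fold change of 0.19, and Ercc6l (PICH), which coats DNA bridges in anaphase, of 0.21. Ercc6 (CSB), of transcription-coupled repair, had a log2 ratio of 0.57 between the replicate 1 libraries and -0.27 between the replicate 2 libraries. Ercc6l2 (-0.12) and Rad54l2 (0.14), a partner of the androgen receptor, also overlapped between the groups. In all, 7 of the 30 members had groups that did not overlap (6 with G784E above and 1, Rad54b, with G784E below), or 23.3%, against 38.8% of all tested genes. By direction, these were 20% of the members with G784E above, against 19.4% of all tested genes, and 1 member with G784E below, against 19.4%.

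**Figure D3:**
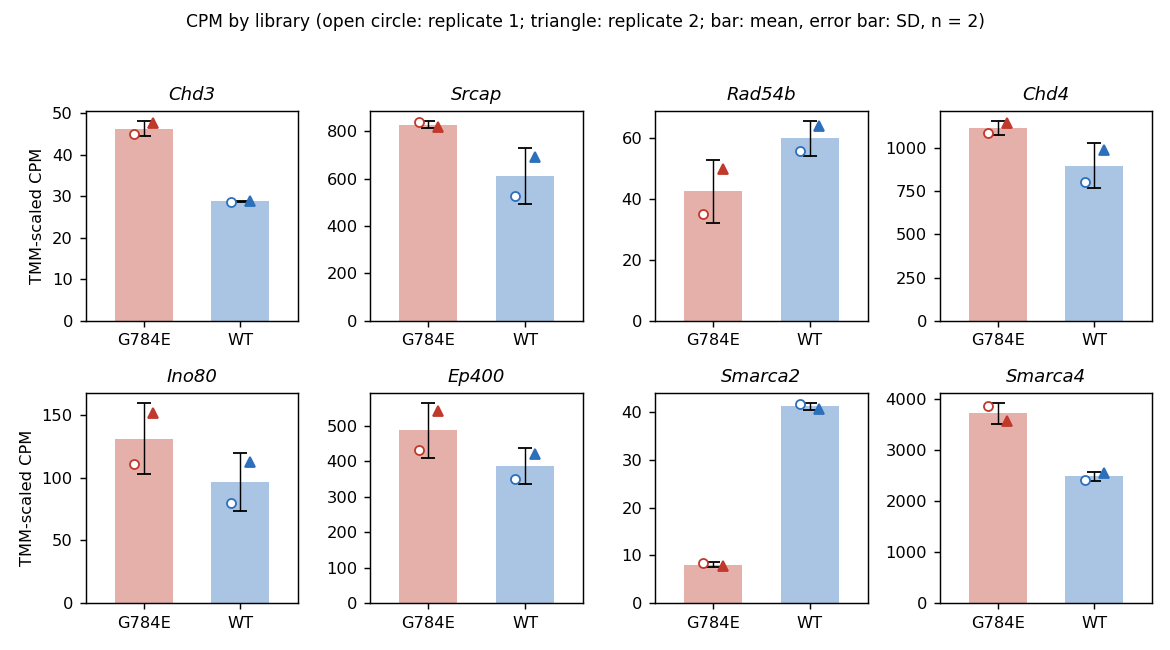
TMM-scaled CPM in the G784E libraries and the WT libraries of the 3 members with an unadjusted p under 0.05 (Chd3, Srcap, Rad54b), of Chd4, Ino80 and Ep400, and of the BAF ATPases Smarca2 and Smarca4; bars are means with SD (n = 2 per group) and points are libraries. Chd3 stands at 45.0 and 47.6 CPM in G784E against 28.7 and 28.8 CPM in WT, while the Ino80 libraries of the groups overlap.

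For most members the replicate number separated the libraries more than the group did. In both groups the library numbered 2 had the higher CPM for 22 of 30 members and the lower for 3, beside 5098 and 5184 of all 15763 tested genes. The median log2 difference, replicate 2 over replicate 1, was 0.28 within G784E and 0.27 within WT, beside -0.02 and 0.01 over all tested genes. For 21 of 30 members this difference, averaged over the groups, exceeded the log2 fold change between the groups. Chd3 was an exception, at 0.08 within G784E and 0.01 within WT. The median log2 ratio of G784E over WT was 0.17 between the replicate 1 libraries and 0.05 between the replicate 2 libraries. The ratio was above 0 in both pairs for 15 members, below 0 in both for 4 and of opposite sign for 11. The olfactory receptor background also differed by number, being higher in replicate 1 of both groups, and its part in these differences was not tested.

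**Figure D4:**
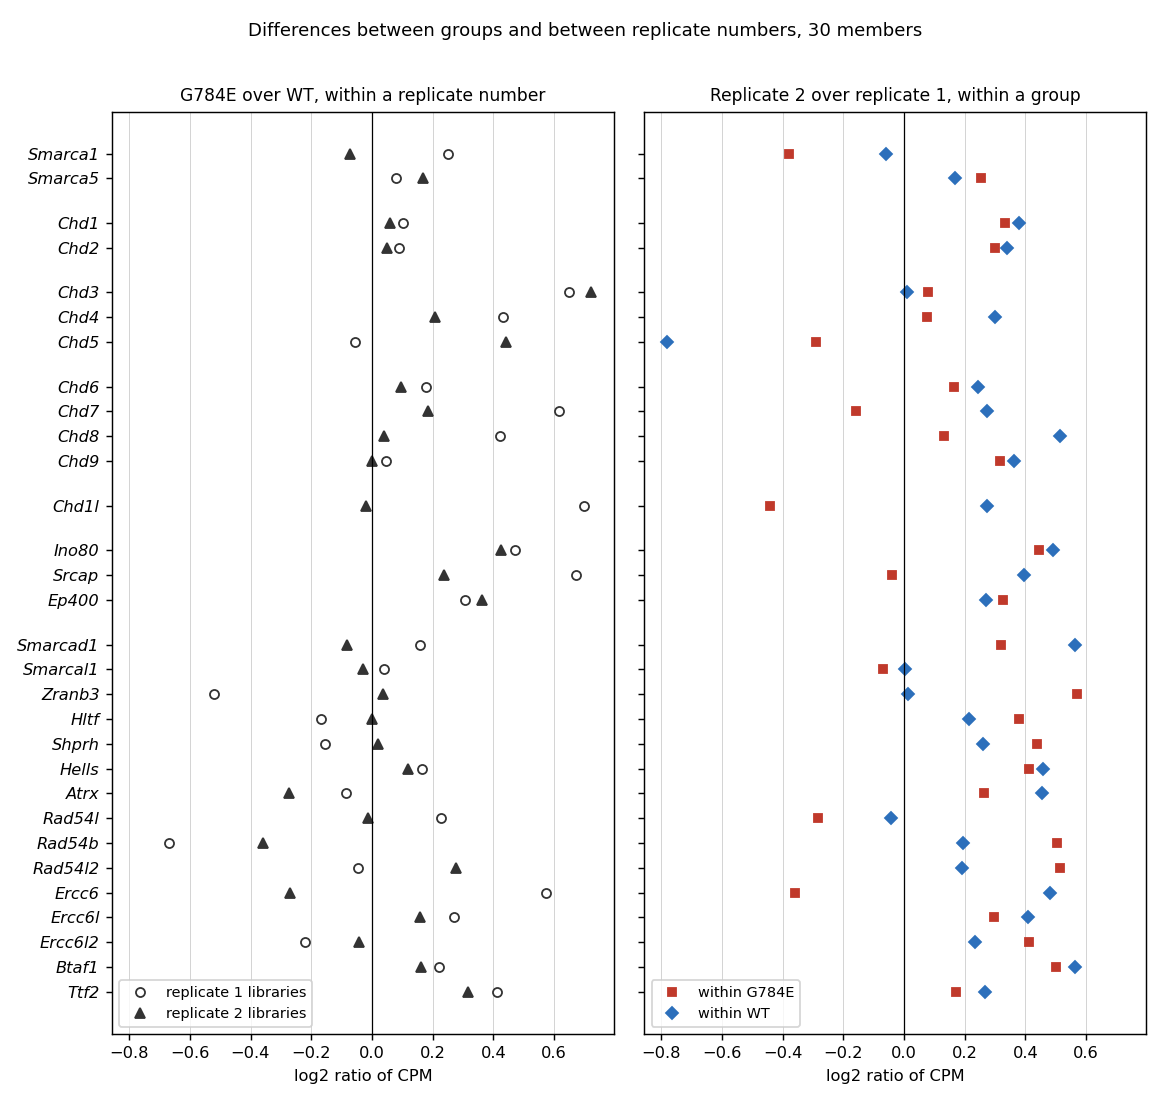
Left, log2 ratio of CPM in G784E over WT within the libraries numbered 1 (circles) and 2 (triangles) for each of the 30 members; right, log2 ratio of replicate 2 over replicate 1 within G784E (squares) and within WT (diamonds). On the right, 22 members lie above 0 in both groups, while on the left 15 lie above 0 in both pairs.

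The genes of the partners were read in the same way. Of 53 listed genes for other subunits of ISWI complexes, NuRD, INO80, SRCAP and TIP60-EP400 and for partners of ATRX and HELLS, 53 were tested and 0 were called in edgeR, with a median log2 fold change of 0.08. At an unadjusted p under 0.05 there were 7, or 13.2%, against 11.6% of all tested genes, and DESeq2 called 0 and limma-voom 1. Some are named here after their values were seen. Mta3, a NuRD subunit, had 100.3 and 115 CPM in G784E and 179 and 154 CPM in WT (log2 fold change -0.63, SE 0.20; edgeR, adjusted p = 0.121), and was the 1 gene that limma-voom called (adjusted p = 0.0453), where 2.31% of all tested genes were called lower. Mta3 was also called with upper-quartile scaling in edgeR, which called 1.85% of all tested genes lower. Baz1a, the partner of SMARCA5 in the ACF and CHRAC complexes, had 68.9 and 85.8 CPM in G784E and 121 and 106 CPM in WT (log2 fold change -0.55, SE 0.21). Of 2 scaffold subunits of the TIP60-EP400 complex, Trrap had a log2 fold change of 0.45 (SE 0.20) and Epc1 of 0.50 (SE 0.21), and neither passed. The rest of the 7 with an unadjusted p under 0.05 in edgeR were Ino80e, Nfrkb and Mbd2. The INO80 subunits Ino80e and Nfrkb had log2 fold changes of 0.58 (SE 0.23) and 0.45 (SE 0.21). The NuRD subunit Mbd2 had -0.51 (SE 0.24). The 13 INO80 subunit genes had a median of 0.24, the 12 NuRD genes 0.03, the 9 ISWI partners 0.06, the 16 SRCAP and TIP60-EP400 genes 0.07, and Daxx, the partner of ATRX, stood at -0.0025.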

How the data were processed

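The authors deposited whole-number counts of reads per gene, not normalized, 1 table per library. Per the submitters' processing notes, the build was mm9 and the tools included Bowtie2 2.1.0, CASAVA 1.8.2, DESeq2 and HTSeq. The annotation, the counting mode and the handling of strand were not given in those sources. Reads from a gene and from an overlapping or antisense one therefore cannot be separated. Summary lines that name no gene were left out. They were 88.3% (G784E) and 88.7% (WT) of the replicate 1 tables and 83.7% (G784E) and 83.3% (WT) of the replicate 2 tables. Of the reads, 55.4% to 61.8% were not placed uniquely, which can lower genes with close copies. That share was also higher in replicate 1 of each group. Groups and replicate numbers came from the labels. Comparing the counts of replicates gene by gene, chi-square over its degrees of freedom came to 15.4 for G784E and 9.22 for WT, far above sampling noise. In neither group did 1 replicate repeat the other, and libraries of different groups were not compared in this way.

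The 24428 genes were filtered with filterByExpr (minimum count 10, minimum total 15), which kept 15763 and all 30 members. edgeR 4.0.16 (R 4.3.3) was run with TMM scaling and its quasi-likelihood test with group as its term, leaving 2 residual degrees of freedom, and Benjamini-Hochberg adjustment at 0.05. Each gene's spread was moderated towards that of all tested genes, which gave a median of 23.35 degrees of freedom for the tests and intervals. The SE is the size of the log2 fold change divided by the root of the F statistic. Ratios within a replicate number used a pseudocount of 0.1 CPM. DESeq2 1.42.0 and limma 3.58.1 (voom) were alternatives. A floor of 3 counts was 0.305 to 0.491 CPM and covers counting error only. Exon lengths and overlaps came from GENCODE M21 (GRCm38), with the exons of all transcripts of a gene merged. Promoters were the first entry per symbol in a RefSeq table. Procedures were tested on simulated data. Every member is named, with library values for those with an unadjusted p under 0.05 and the highest of each class; library values of other members, and the partners named, were chosen after their values were seen. Members and lists were chosen with earlier results of these data known. Other choices tried were upper-quartile and RLE scaling, omitting the filter, raising it (1 CPM in 2 libraries, 50 counts in total), a replicate block, no Rn45s and each library left out.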

Additional observations from a re-analysis of the deposited data

How the results depend on the processing

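Called members were 0 in either direction under RLE or upper-quartile scaling, no filter, the stricter filter, DESeq2, limma-voom and without Rn45s. The replicate number as a block gave 6 members higher (Srcap 0.45, adjusted p = 0.00555; Chd3 0.69, adjusted p = 0.0262; Ino80 0.45, adjusted p = 0.0351; Chd4 0.32, adjusted p = 0.0377; Ep400 0.33, adjusted p = 0.0440; Chd7 0.40, adjusted p = 0.0472; edgeR, log2 fold changes) and 0 lower, 3 partners higher and 2 lower, and 546 genes higher (3.46%) and 658 lower (4.17%). The labels do not say that the numbers pair libraries; deviations from the group means of same-numbered libraries correlated at 0.487 over all tested genes (0.39 over the members), from 2 pairs. Upper-quartile scaling and limma-voom each called 1 partner lower (Mta3), and limma-voom 186 genes higher, against 106.

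Leaving out each library in turn gave 0 to 1 members lower (Rad54b), 0 to 1 partners lower (Mta3), 29 to 307 genes higher, 156 to 532 genes lower and a member median of 0.011 to 0.27. With 1 library in a group, that library is taken to vary as the other group does. Adjusted p of Chd3 ran from 0.0262 to 0.713 over all alternatives, with log2 fold changes of 0.65 to 0.75. Of the single-member values under the alternatives, 318 kept their sign and side of the threshold, 7 came to pass it and 35 changed sign, all of members not called, and the cause was not tested. Log2 fold changes over the libraries left out ran from -0.088 to 0.31 for Smarca1, -0.097 to 0.28 for Chd1, -0.092 to 0.25 for Chd2, -0.20 to 0.60 for Chd5, -0.025 to 0.49 for Chd8, -0.15 to 0.21 for Chd9, -0.23 to 0.33 for Smarcad1, -0.012 to 0.061 for Smarcal1, -0.51 to 0.062 for Zranb3, -0.26 to 0.12 for Hltf, -0.27 to 0.16 for Shprh, -0.073 to 0.39 for Hells, -0.40 to 0.054 for Atrx, -0.017 to 0.27 for Rad54l, -0.12 to 0.39 for Rad54l2, -0.082 to 0.40 for Ercc6, -0.32 to 0.087 for Ercc6l2 and -0.068 to 0.50 for Btaf1. Without a change of sign they ran from 0.016 to 0.27 for Smarca5, 0.67 to 0.75 for Chd3, 0.17 to 0.47 for Chd4, 0.017 to 0.26 for Chd6, 0.27 to 0.54 for Chd7, 0.13 to 0.58 for Chd1l, 0.22 to 0.71 for Ino80, 0.26 to 0.65 for Srcap, 0.19 to 0.51 for Ep400, -0.75 to -0.25 for Rad54b, 0.019 to 0.43 for Ercc6l and 0.24 to 0.50 for Ttf2. Without the filter Chd9 stood at -0.015, Smarcad1 at -0.016 and Smarcal1 at -0.034, without Rn45s Chd9 at -0.011, Smarcad1 at -0.010 and Smarcal1 at -0.030, and Smarcal1 at -0.0010 under the stricter filter. No scaling moved the median of all genes by over 0.1. With 2 libraries per group, the intervals of 13 of 30 members lie within 1.5-fold in either direction, and for the other members these data do not bound the change that closely.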

Other observations

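Some genes that overlap or copy a member are listed in the same tables, while Gm42715, over most of Srcap, was not found there. The pseudogene Smarca5-ps had 120 and 272 counts in G784E and 113 and 210 counts in WT (19.6 and 32.0 CPM in G784E, 14.9 and 21.3 CPM in WT), with overlapping groups and a log2 fold change of 0.51 (SE 0.28; edgeR, adjusted p = 0.523). Fsbp, which shares exons with Rad54b, had 5 and 16 counts in G784E and 8 and 19 counts in WT. Lrrc41, on the opposite strand over exons of Rad54l, had 58.1 and 47.7 CPM in G784E and 50.3 and 56.5 CPM in WT (log2 fold change -0.02). The transcript 1810026B05Rik, which shares exon bases with Chd2 on the same strand, had 12.1 and 17.3 CPM in G784E and 8.58 and 18.1 CPM in WT. The antisense gene 1700008J07Rik, which overlaps Srcap on the opposite strand, had 14.2 and 10.5 CPM in G784E and 7.66 and 10.8 CPM in WT, with overlapping groups and a log2 fold change of 0.41 (SE 0.34; edgeR, adjusted p = 0.792). Its log2 ratio was 0.89 between the replicate 1 libraries and -0.04 between the replicate 2 libraries. None of these genes passed edgeR's test.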
